A study of Mus musculus with 4 samples.

Results

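Chromatin accessibility was described around the 5 genes of the CCAAT/enhancer-binding protein (C/EBP) family, Cebpa, Cebpb, Cebpd, Cebpe and Cebpg, in cultured adipocyte precursors before and after their differentiation. A site was counted for a gene when the summit of at least 1 of its peaks lay within 50 kb of an annotated transcription start site (TSS) of that gene, and 53 of the 100904 sites in the 4 peak lists met this rule. Of these, 21 belonged to Cebpb, 13 each to Cebpa and Cebpg, 7 to Cebpe and 4 to Cebpd. The TSSs of Cebpa and Cebpg are 62.8 kb apart on chromosome 7, and 5 sites between them were counted for both genes. The rule used position alone and no measured change. Only 24 of the 53 sites lay nearest to a start of a member gene when set against the starts of all coding genes, non-coding transcripts of those genes included, so a site in a window is not assigned to its gene by any measurement.

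The cells were im-scWAT cells, made from the stromal vascular fraction of subcutaneous white adipose tissue of 5-week-old mice and immortalized with SV40 large T antigen, and both cultures carry that antigen. WT cells came from Jmjd1a +/+ mice and HY cells from Jmjd1a HY/HY mice, whose histone H3 lysine 9 demethylase JMJD1A has lost its enzyme activity through a histidine replaced by tyrosine. Cells were taken at confluence (day 0, D0) or after 8 days (day 8, D8), of which 2 were in a medium with indomethacin, dexamethasone, 3-isobutyl-1-methylxanthine, rosiglitazone, insulin and T3 and 6 in insulin, T3 and rosiglitazone alone, a course meant to give beige adipocytes. A single ATAC-seq library was made for each genotype and day, so 4 libraries in all, and whether a culture descends from a single clone is not given in the sources used here.

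Each group holds 1 library, no test of genotype or day was run, and every difference below is one between libraries. The lists held 71523 peaks in WT at D0, 41228 in WT at D8, 77994 in HY at D0 and 48964 in HY at D8, and the depth estimated from their background rates was 1.00, 0.806, 1.07 and 0.750 relative to WT at D0. Chromosome Y held 1 peak in each WT list and 7 and 6 peaks in the HY lists, so the cultures differ in more than the labelled genotype and the effects of genotype and culture cannot be told apart. Of 6 adipocyte genes, 1 had a promoter peak in each D0 list and 5 in each D8 list, the exception at D8 being Ucp1, the thermogenic uncoupling protein, which had none in any list. Of 6 preadipocyte and stromal genes, 6 and 5 had one at D0 and 2 in each genotype at D8. None of the 4 immune or 3 epithelial genes had a promoter peak in any library, while Tek and Kdr, which mark endothelial cells, had one at D0 in both genotypes. The summed pileup over the 4 endothelial genes was 53 and 40 in WT and HY at D0 and 0 and 4 at D8, and Cdh5 had no peak in any list. Pecam1 had a peak in WT at D0 only, with 9 tags. Whether endothelial cells were present, and any part of theirs in the changes between days, was not tested.

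C/EBP proteins are basic leucine zipper transcription factors that bind DNA as dimers with each other or with relatives such as ATF4. In preadipocytes exposed to a hormonal cocktail, C/EBPβ and C/EBPδ are the early members, induced by cAMP signalling and glucocorticoid, and they precede C/EBPα and PPARγ, which maintain one another and the genes of the mature fat cell. C/EBPγ is broadly expressed and lacks the activation domain of the others, and C/EBPε is known for terminal granulocyte maturation rather than for fat.

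Sequences are given here for the promoters, because their accessibility separates Cebpe from its relatives, and for 5 sites: the 2 strongest of those open only at D8 in both genotypes, the strongest of those open only at D0 in both, the site at which the lower of the WT and HY ratios of D8 to D0 was highest, and the site open only in HY. They were read 5′ to 3′ from the NCBIM37 (mm9) assembly in the direction of the gene's transcription, the promoters as the 200 bases before the most upstream annotated TSS and the sites as 201 bases centred on the summit of the strongest peak. Capitals mark exact matches, on either strand, to 7 sets of letters: C/EBP (TTGCGCAA, TTGCGTAA or TTACGTAA), C/EBP-ATF (TGATGCAA), the cAMP response element or CRE (TGACGTCA), AP-1 (TGANTCA), STAT (TTCNNNGAA), the EBF core (CCCNNGGG) and the GC box (GGGCGG). None of these letter sets is contained in another, although TTACGTAA and TGACGTCA share the central ACGT.

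The promoters were as follows.
Cebpa promoter (chr7:35904112-35904311, plus strand): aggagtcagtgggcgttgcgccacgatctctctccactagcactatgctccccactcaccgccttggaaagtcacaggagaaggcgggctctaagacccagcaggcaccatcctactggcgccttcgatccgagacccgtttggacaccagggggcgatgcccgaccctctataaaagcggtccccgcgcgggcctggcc
Cebpb promoter (chr2:167514215-167514414, plus strand): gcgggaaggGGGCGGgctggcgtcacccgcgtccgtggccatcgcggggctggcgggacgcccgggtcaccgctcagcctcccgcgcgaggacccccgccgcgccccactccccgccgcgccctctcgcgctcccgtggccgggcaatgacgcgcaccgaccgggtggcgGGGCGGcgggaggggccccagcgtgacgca
Cebpd promoter (chr16:15887179-15887378, plus strand): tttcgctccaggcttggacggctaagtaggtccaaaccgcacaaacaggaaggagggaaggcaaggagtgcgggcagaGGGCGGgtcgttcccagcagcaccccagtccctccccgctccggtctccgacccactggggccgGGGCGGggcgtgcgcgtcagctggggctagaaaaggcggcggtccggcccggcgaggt
Cebpe promoter (chr14:55331012-55331211, minus strand): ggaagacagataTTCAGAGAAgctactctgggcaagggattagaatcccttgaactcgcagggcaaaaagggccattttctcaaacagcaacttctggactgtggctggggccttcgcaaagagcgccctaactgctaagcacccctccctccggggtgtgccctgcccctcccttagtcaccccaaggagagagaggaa
Cebpg promoter (chr7:35841523-35841722, minus strand): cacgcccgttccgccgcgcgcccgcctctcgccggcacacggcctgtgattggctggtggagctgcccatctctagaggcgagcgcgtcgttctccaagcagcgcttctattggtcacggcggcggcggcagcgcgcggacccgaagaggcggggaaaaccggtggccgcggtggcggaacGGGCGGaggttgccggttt

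The promoters of Cebpb, Cebpd and Cebpg held GC boxes, at -191 and -30 bp in Cebpb, -122 and -58 bp in Cebpd and -19 bp in Cebpg, and that of Cebpe held 1 match to the STAT letters at -188 bp. The promoter of Cebpa held no match, which says only that these letters are not in this window. CpG dinucleotides numbered 34 in the Cebpb promoter, 31 in Cebpg, 19 in Cebpd, 15 in Cebpa and 4 in Cebpe, against a median of 7 over 22367 coding genes. That median was 14 over the 44.8% of coding genes with a promoter peak in all 4 libraries and 2 over the 41.4% with none in any library, and 10.9% of the former and 74.3% of the latter held as few CpGs as Cebpe or fewer.

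The 5 sites away from promoters are named by their distance from the TSS, positive in the direction of transcription.
Cebpb +5.5 kb, D8 only in both genotypes (chr2:167519863-167520063, plus strand): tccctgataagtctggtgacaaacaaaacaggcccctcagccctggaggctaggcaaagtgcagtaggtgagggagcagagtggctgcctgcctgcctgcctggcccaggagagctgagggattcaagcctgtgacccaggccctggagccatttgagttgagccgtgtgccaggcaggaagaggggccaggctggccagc
Cebpb +7.5 kb, D8 only in both genotypes (chr2:167521843-167522043, plus strand): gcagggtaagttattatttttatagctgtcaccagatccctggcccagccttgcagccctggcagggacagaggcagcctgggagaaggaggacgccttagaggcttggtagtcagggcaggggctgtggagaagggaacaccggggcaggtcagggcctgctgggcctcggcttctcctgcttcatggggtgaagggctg
Cebpb -39.5 kb, D0 only in both genotypes (chr2:167474815-167475015, plus strand): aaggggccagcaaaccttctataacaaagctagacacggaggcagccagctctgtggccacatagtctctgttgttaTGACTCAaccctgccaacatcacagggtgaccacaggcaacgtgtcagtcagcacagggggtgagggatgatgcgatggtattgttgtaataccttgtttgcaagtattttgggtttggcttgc
Cebpg +13.0 kb, higher at D8 in both genotypes (chr7:35827899-35828099, minus strand): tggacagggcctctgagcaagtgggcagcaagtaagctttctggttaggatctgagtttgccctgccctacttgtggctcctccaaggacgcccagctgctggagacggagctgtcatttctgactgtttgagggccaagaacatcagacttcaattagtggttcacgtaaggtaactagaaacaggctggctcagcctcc
Cebpa +8.0 kb, in HY only (chr7:35912241-35912441, plus strand): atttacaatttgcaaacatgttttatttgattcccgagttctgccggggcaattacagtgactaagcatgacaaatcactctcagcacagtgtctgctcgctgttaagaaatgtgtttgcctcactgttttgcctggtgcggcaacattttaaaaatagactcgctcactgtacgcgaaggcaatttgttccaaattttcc

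The site at -39.5 kb held 1 match to the AP-1 letters, 23 bases before its summit, and the other 4 held none of the 7 sets. Over all 53 sites, C/EBP, C/EBP-ATF and CRE letters were found in 0 within 100 bp of the summit, as against 0.426%, 1.15% and 0.686% of 100608 sites on assembled chromosomes, rates at which fewer than 1 match would fall on 53 sites. AP-1 letters were present at 8 of 53 sites (15.1%, all sites 22.0%), GC boxes at 8 (15.1%, all sites 14.6%), STAT letters at 2 (3.77%, all sites 6.43%) and the EBF core, named for the early B-cell factors that act in adipocytes, at 13 (24.5%, all sites 9.76%). The median GC content of these windows was 56.2% at the C/EBP gene sites and 50.2% over all sites, and its part in the EBF share was not tested.

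The first question was how accessible the promoters of the family were and whether this changed with differentiation. The summit pileup, the number of sequenced tags covering the highest point of a peak, was recovered from the deposited fold enrichment and p-value, and it was divided by the background rate of its library to give a scaled pileup that can be compared between libraries and, being the height at a single point, between genes. All intervals given are 95% intervals. Those of a pileup (exact Poisson), a ratio of pileups (exact conditional binomial) and a share (Clopper-Pearson) cover counting error only, and that of a median (order statistics) covers the spread over sites. Promoter sites were open, meaning that a peak was listed, in all 4 libraries at Cebpa, Cebpb, Cebpd and Cebpg, and Cebpe had no summit from 1000 bp upstream to 100 bp downstream of its TSS in any library.

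Cebpa (ENSMUSG00000034957.9, chr7:35904312-35906945, plus strand), which encodes the factor that sustains the adipocyte state, had its promoter site at chr7:35903334-35904793. Its summit held 61 tags in WT at D0, 57 in WT at D8, 55 in HY at D0 and 61 in HY at D8, or 92.6, 107, 77.7 and 123 times the background rate. The scaled pileup at D8 was 1.16 times that at D0 in WT (0.794 to 1.69) and 1.59 times in HY (1.08 to 2.33). Both D8 values lay above both D0 values, but the interval in WT included 1.

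Cebpb (ENSMUSG00000056501.3, chr2:167514415-167515918, plus strand), an early adipogenic member, had a site over its TSS at chr2:167514103-167514677, with its summit 104 bp inside the transcript. Its summit pileup was 26 in WT at D0, 42 in WT at D8, 35 in HY at D0 and 34 in HY at D8, or 39.5, 79.1, 49.5 and 68.8 scaled. In WT the D8 value was 2.01 times the D0 value (1.20 to 3.41) and in HY 1.39 times (0.842 to 2.30), so the interval in HY included 1. A second promoter site 0.6 kb upstream (chr2:167513711-167513870) held 34, 30 and 25 tags in WT at D0, WT at D8 and HY at D0 and had no peak in HY at D8, where a summit needed at least 18 tags to be listed at the highest background found in that list within 10 kb. When the strongest summit from 2000 bp upstream to 1000 bp downstream was taken instead, which in WT at D0 is the 34 tags of this second site, the D8/D0 ratio in WT was 1.53 (0.952 to 2.48), below 2 and with an interval that included 1.

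Cebpd (ENSMUSG00000071637.4, chr16:15887379-15888559, plus strand), the other early member, is marked as a pseudogene in the gene annotation used here (GENCODE M1). Its promoter site (chr16:15886704-15887950) was the most even, with 59 tags in WT at D0, 57 in WT at D8, 65 in HY at D0 and 55 in HY at D8, or 89.6, 107, 91.9 and 111 scaled. The D8/D0 ratio was 1.20 in WT (0.818 to 1.76) and 1.21 in HY (0.830 to 1.76), and neither interval excluded 1.

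Cebpg (ENSMUSG00000056216.8, chr7:35831441-35841522, minus strand), the member without an activation domain, had its promoter site at chr7:35840910-35841976. Its summit held 27 tags in WT at D0, 41 in WT at D8, 41 in HY at D0 and 38 in HY at D8, or 41.0, 77.2, 57.9 and 76.9 scaled. The D8/D0 ratio was 1.88 in WT (1.13 to 3.19) and 1.33 in HY (0.831 to 2.12).

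Cebpe (ENSMUSG00000052435.6, chr14:55329200-55331011, minus strand), the granulocyte member, was the exception, with no promoter peak listed. The nearest site to its TSS lay 2.2 kb upstream (chr14:55332683-55333260) and held 9 tags in WT at D0, 17 in HY at D0 and 9 in HY at D8, with no peak in WT at D8, where 5 tags would have been enough at the background found nearby.

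In each library the scaled promoter pileups formed a higher pair, Cebpa and Cebpd, and a lower pair, Cebpb and Cebpg. Within a pair the Poisson intervals overlapped in all 4 libraries. The interval of the lower gene of the higher pair was apart from that of the higher gene of the lower pair in WT at D0 and overlapped it in the other libraries. This holds for the Cebpb site over its TSS. The 34 tags of its site 0.6 kb upstream in WT at D0 (23.5 to 47.5) overlapped the 59 of Cebpd (44.9 to 76.1). The ratio of HY to WT had an interval that included 1 at each of these 4 promoters on both days, from 0.840 (0.572 to 1.23) at Cebpa to 1.41 (0.849 to 2.39) at Cebpg at D0 and from 0.870 (0.537 to 1.40) at Cebpb to 1.15 (0.788 to 1.68) at Cebpa at D8.

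**Figure D1:**
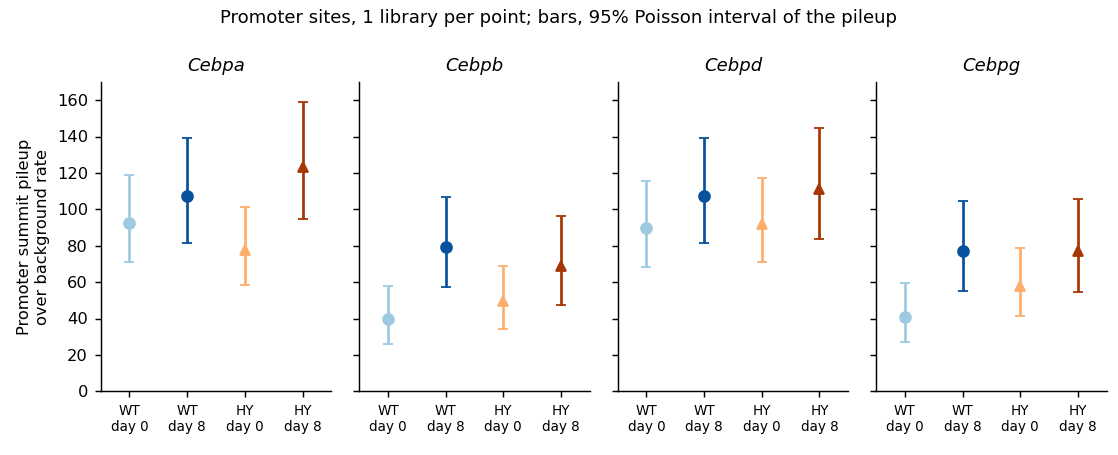
Summit pileup of the promoter site of each C/EBP gene with a promoter peak, divided by the background rate of the library (y axis, no unit), in the 4 libraries (x axis, 1 point each), with bars for the 95% Poisson interval of the pileup. For Cebpb the site over the TSS is drawn. Cebpa and Cebpd sit between 77.7 and 123 and Cebpb and Cebpg between 39.5 and 79.1, with all D8 points above the D0 points of the same genotype.

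Among pathway genes with a promoter peak in all 4 libraries, the pattern over libraries (log2 scaled pileup, centred on its mean) was compared as a distance with 20 genes. The nearest to Cebpa were Egr2 at 0.106, Nfil3 at 0.207 and Stat5b at 0.246, and to Cebpd Trib2 at 0.134, Dbp at 0.147 and Ddit3 at 0.171. Slc2a4, the insulin-responsive glucose transporter, was nearest to both Cebpb (0.251) and Cebpg (0.220), followed by Nfil3 (0.479) and Trib2 (0.550) for Cebpb and Trib2 (0.486) and Nfil3 (0.544) for Cebpg. These distances rest on 4 libraries and are a description. No counting error was computed for them, and the Stat5b promoter held only 10 to 12 tags per library, so the order of the genes is uncertain.

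The second question was which distal sites were gained and lost with differentiation. In WT, 43 of the 53 sites were open on at least 1 day, and 12 of these (27.9%, 15.3 to 43.7%) were open only at D8 and 12 only at D0. Over all sites of the genome 12.1% were open only at D8 and 52.7% only at D0. In HY, 15 of 45 sites (33.3%, 20.0 to 49.0%) were open only at D8 (all sites 13.7%) and 10 (22.2%, 11.2 to 37.1%) only at D0 (all sites 49.3%). The share gained was thus above the genome-wide share and the share lost below it in both genotypes, with none of the 4 intervals reaching the genome-wide value, although neighbouring sites are not independent and these intervals treat them as if they were. With a window of 25 kb 7 of 28 sites were open only at D8 in WT (10.7 to 44.9%), an interval that included the genome-wide 12.1%. The D8 lists are much shorter than the D0 lists, and with lists shortened to equal length the member shares in WT became 48.5% at D8 only and 6.06% at D0 only, against 25.5% and 31.7% over all sites. Among the sites that lay nearest to a start of a member gene, the share open only at D8 was 11.8% in WT (1.46 to 36.4%, 17 sites), close to the genome-wide share, and 33.3% in HY (14.6 to 57.0%, 21 sites), with an interval above it. In the same subset the share open only at D0 was 35.3% in WT (14.2 to 61.7%), an interval that included the genome-wide 52.7%, and 4 of 21 sites in HY (5.45 to 41.9%), below the genome-wide 49.3%. This subset leaves out 8 of the 9 sites downstream of the Cebpb TSS, because a non-coding transcript of Tmem189 starts 907 bp downstream of it on the other strand.

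**Figure D2:**
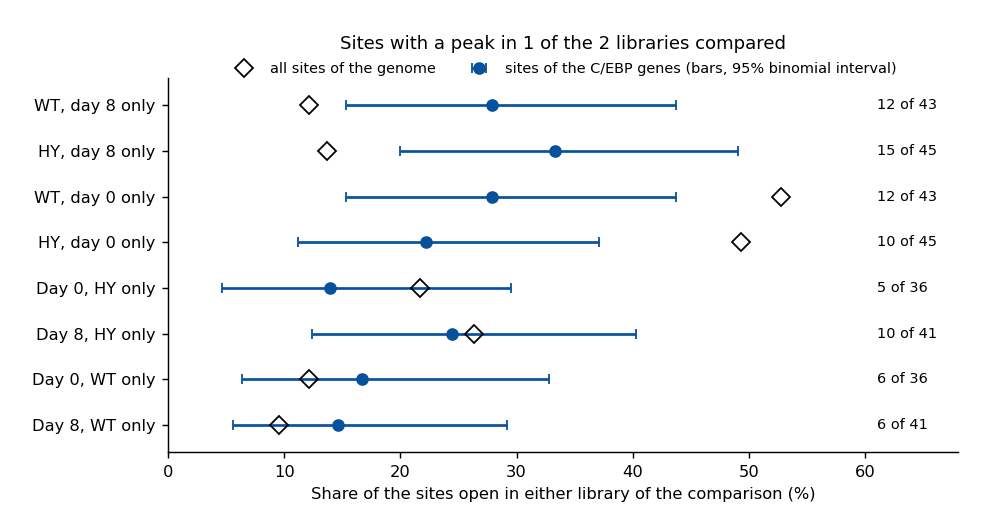
Share of sites with a peak in only 1 of the 2 libraries compared (x axis, percent of sites open in either library), for the C/EBP gene sites (filled circles with 95% binomial intervals, counts at the right) and for all sites of the genome (open diamonds). The 4 day comparisons stand at the top, where the circles lie to the right of the diamonds for D8 only and to the left for D0 only, and in the 4 genotype comparisons below the intervals include the diamonds.

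Counted over both genotypes, 8 of 53 sites (15.1%, 6.75 to 27.6%) were open at D8 in both and at D0 in neither, as were 6.00% of all sites, and 5 (9.43%, 3.13 to 20.7%) showed the reverse, as did 24.6% of all sites. These are called gained and lost sites in what follows. Another 16 (30.2%, 18.3 to 44.3%) were open in all 4 libraries, as were 24.2% of all sites. Of the gained sites 4 were at Cebpb, 2 at Cebpg and 1 each at Cebpa and Cebpd, and of the lost sites 4 were at Cebpb and 1 at Cebpd. Cebpe had neither kind. Over all coding genes the median number of such gained sites was 0, 27.9% had at least 1, 11.0% at least 2 and 2.10% had 4 or more, as Cebpb did. The median coding gene had 7 sites in its window and the upper quartile was 12, against 21 at Cebpb, and the share gained at Cebpb, 4 of 21, had an interval of 5.45 to 41.9%, which included the 6.00% over all sites.

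The gained sites with the highest pileups lay downstream of Cebpb, in and around the non-coding gene A530013C23Rik. At +7.5 kb (chr2:167521766-167522140, an exon of that gene) the summit held 29 tags in WT and 33 in HY at D8, or 54.6 and 66.8 scaled. At +5.5 kb (chr2:167519826-167520239, an intron) it held 28 and 32, or 52.8 and 64.8 scaled. Neither site had a peak at D0 in either genotype, where at least 14 tags were needed at the highest background in those lists within 10 kb. The third site, at +13.3 kb (chr2:167527659-167527932), held 19 tags in WT and 18 in HY at D8 against a D0 minimum of 8 in both, and the last, at -28.8 kb in a Tmem189 intron (chr2:167485497-167485759), held 16 in each against a D0 minimum of 9.

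Between these gained sites stood one that was open on both days. At +9.1 kb (chr2:167523234-167523749) the summit held 24 tags in WT at D0, 32 in WT at D8, 25 in HY at D0 and 36 in HY at D8, a scaled ratio of 1.65 in WT (0.945 to 2.94) and 2.06 in HY (1.20 to 3.58). The local background around its summit, which averages the tags of the surrounding region, was 1.90 at D0 and 5.56 at D8 in WT and 1.99 and 5.92 in HY. The surrounding region may take in the gained sites, so these values do not separate tags inside peaks from tags between them. At the Cebpb promoter the local background was 7.69, 13.0, 7.53 and 13.7 times the background rate in WT at D0, WT at D8, HY at D0 and HY at D8, and 4.16%, 0.902%, 4.77% and 1.06% of all peaks in those lists had a background as high. All 7 Cebpb sites shared by the WT libraries had a D8/D0 ratio above 1, with a median of 1.31, and so did 4 of 5 in HY, with a median of 1.39. Over all shared sites, 10663 of 27417 in WT and 13075 of 33033 in HY had a ratio above 1.

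The lost sites of Cebpb lay mostly upstream, in introns of Tmem189, a gene of plasmalogen synthesis. At -39.5 kb (chr2:167474804-167475152), the site with the AP-1 letters, the summit held 25 tags in WT and 30 in HY at D0, and no peak was listed at D8, where 5 and 4 tags would have been enough at the background nearby. At -28.2 kb (chr2:167486172-167486294) it held 13 and 14 against a D8 minimum of 10 and 9, close to what an unchanged site would hold at the lower depth of the D8 libraries, and at -42.4 kb (chr2:167471989-167472200) 10 and 14 against 5 and 4. The remaining site of this kind, at +19.7 kb, held 8 and 10 at D0, no more than the 10 needed at D8 in both genotypes, so an unchanged pileup could also have gone unlisted there. The Tmem189 promoter nearby, at -27.3 kb (chr2:167486954-167487633, summit 88 bp before a Tmem189 TSS), was open throughout with 35, 32, 38 and 36 tags in WT at D0, WT at D8, HY at D0 and HY at D8, and its D8/D0 ratio was 1.13 in WT (0.680 to 1.89) and 1.36 in HY (0.836 to 2.20).

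**Figure D3:**
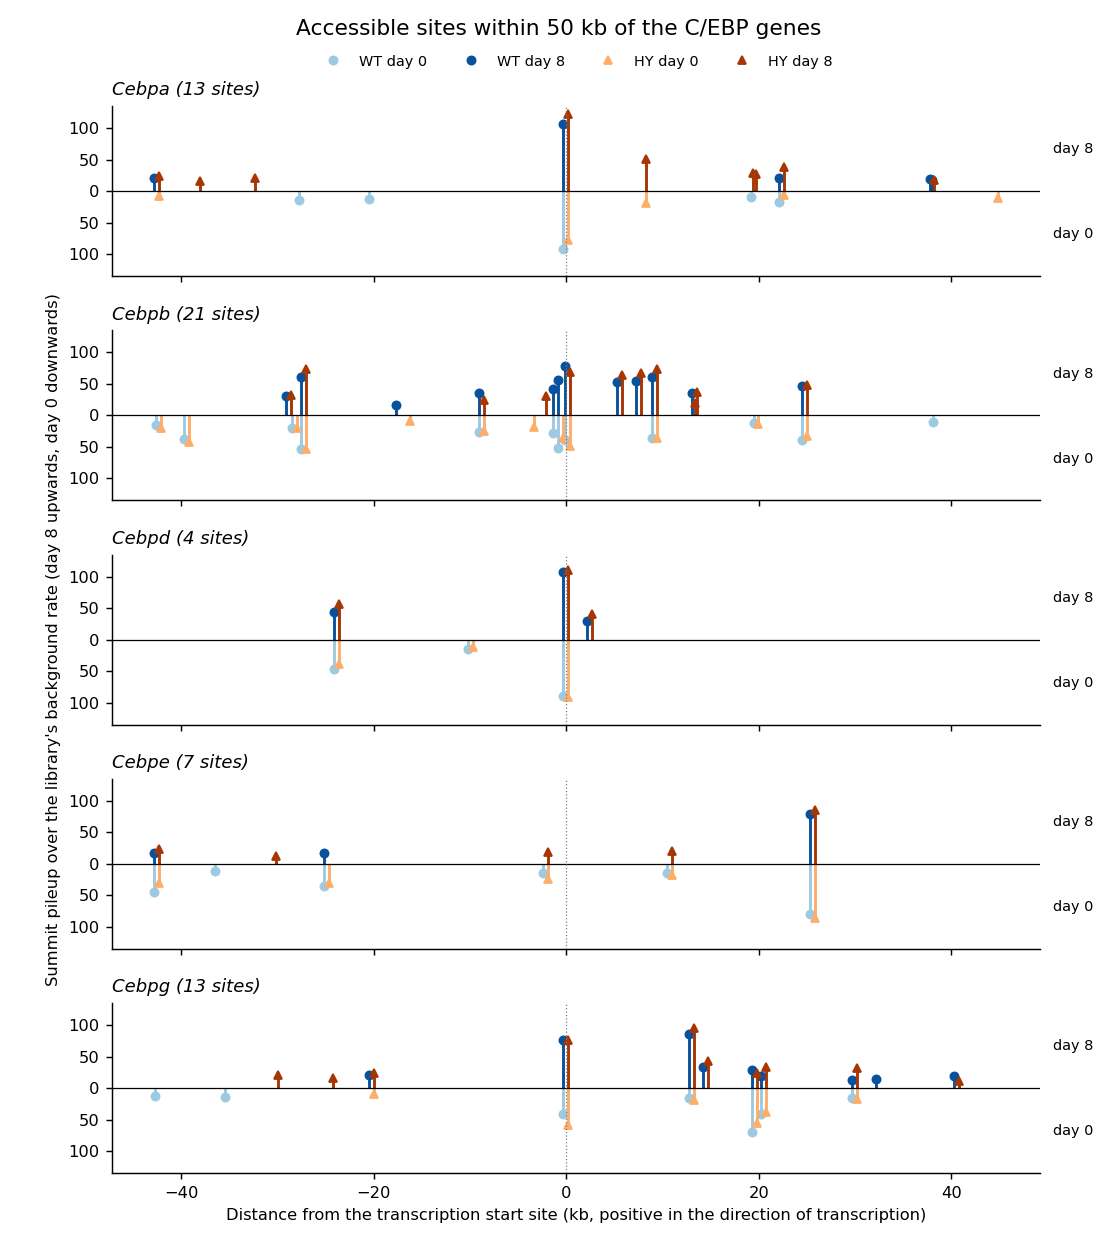
Sites within 50 kb of each C/EBP gene by distance from the TSS (x axis, kb) and scaled summit pileup (y axis, no unit), with D8 libraries drawn upwards and D0 libraries downwards, WT as circles and HY as triangles, shifted sideways by 0.25 kb to either side for legibility. Stems on 1 side of the line only, as at 5.5 and 7.5 kb downstream of Cebpb, are sites with no peak on the other day.

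Within 50 kb of Cebpg the strongest changes lay in Pepd, the gene of the dipeptidase that clears proline dipeptides, which reaches into the window downstream of Cebpg. At +13.0 kb (chr7:35827595-35828263, 210 bp before the start of a short Pepd transcript with a retained intron) the summit held 10 tags in WT at D0, 46 in WT at D8, 13 in HY at D0 and 47 in HY at D8. The scaled pileup was 15.2 at D0 and 86.7 at D8 in WT, a ratio of 5.71 (2.84 to 12.7), and 18.4 and 95.1 in HY, a ratio of 5.18 (2.76 to 10.4). The 2 genotypes were alike on each day, and both D8 values lay far above both D0 values. Next to it, at +14.4 kb (chr7:35826403-35826590), a gained site held 18 tags in WT and 21 in HY at D8 against a D0 minimum of 12 and 11, and a further gained site at +40.5 kb (chr7:35800400-35800538) held 10 and 6 against 5 in both.

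A Pepd intron site close by was lower at D8 in both genotypes. At +19.6 kb (chr7:35821013-35821826) the summit held 46 tags in WT at D0, 15 in WT at D8, 39 in HY at D0 and 12 in HY at D8, and the scaled ratio was 0.405 in WT (0.210 to 0.738) and 0.441 in HY (0.210 to 0.859). At +20.5 kb (chr7:35820210-35820729) it held 27, 10, 27 and 17, with a ratio of 0.460 in WT (0.199 to 0.980) and of 0.902 in HY (0.461 to 1.72), where the interval included 1. The sites at +13.0 and +19.6 kb thus differed between days in opposite directions in both genotypes.

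Around Cebpa the distal site open in all libraries, at +22.3 kb (chr7:35926395-35926985), held 12 tags in WT at D0, 11 in WT at D8, 5 in HY at D0 and 19 in HY at D8. Its D8/D0 ratio was 1.14 in WT (0.455 to 2.82) and 5.44 in HY (1.97 to 18.6), a value that rests on the 5 tags of HY at D0. The site gained in both genotypes, at +38.0 kb (chr7:35942211-35942364), held 10 tags in WT and 9 in HY at D8 against a D0 minimum of 5 in both. Near Cebpd a site was gained at +2.4 kb (chr16:15889737-15889841, within an annotated coding exon of 2310008H04Rik), with 16 tags in WT and 20 in HY at D8 against a D0 minimum of 12 and 13. Another was open at D0 only, at -9.9 kb (chr16:15877393-15877513), with 10 tags in WT and 8 in HY. At D8, 11 and 12 were needed at the highest background within 10 kb, that of the Cebpd promoter. That minimum may be too high, since the D0 background was 0.659 and 0.708 at this site and 4.19 and 4.33 at the promoter. Whether an unchanged pileup would have been listed at D8 is therefore unknown. The remaining Cebpd site is the promoter of Mzt2, a microtubule nucleation factor, at -23.9 kb (chr16:15862640-15863784), with 31, 23, 27 and 28 tags in WT at D0, WT at D8, HY at D0 and HY at D8.

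The Cebpe window held no gained site, and its strongest site was the promoter of the neighbouring gene Acin1, which encodes a factor of splicing and apoptotic chromatin condensation. That site, at +25.6 kb (chr14:55304860-55305963), held 52 tags in WT at D0, 42 in WT at D8, 61 in HY at D0 and 42 in HY at D8, with a D8/D0 ratio of 1.00 in WT (0.651 to 1.54) and 0.986 in HY (0.649 to 1.48). In an intron of Slc7a8, an amino acid transporter, the site at -42.6 kb (chr14:55373426-55374037) held 29, 9, 22 and 12 tags, with a ratio of 0.385 in WT (0.160 to 0.836) and 0.781 in HY (0.352 to 1.65). The Slc7a8 intron site at -24.9 kb held 23 tags in WT and 22 in HY at D0, 9 in WT at D8 and no peak in HY at D8.

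Where a site had a peak on both days, the scaled pileups could be compared directly. The median D8/D0 ratio was 1.14 over 19 sites in WT, with an order-statistic interval of 0.869 to 1.44 over sites and a range of 0.385 to 5.71, and 1.37 over 20 sites in HY, with an interval of 0.986 to 1.91 and a range of 0.441 to 5.44. Both intervals included 1. The median over all shared sites was 0.896 over 27417 sites in WT, which lies within the WT interval, and 0.884 over 33033 in HY, which lies below the HY interval. When peaks were joined only where 50% of a peak was covered, the HY interval was 0.758 to 1.49 and included 0.884. For the sites nearest to a start of a member gene the WT median was 1.20 (1.10 to 1.88, 9 sites), with an interval above 1 and above 0.896. A ratio of at least 2 was found at 2 sites in WT (all sites 4.79%), Cebpb +0.1 kb, whose 2.01 is at the threshold and which was 1.53 with the wider promoter window, and Cebpg +13.0 kb, and at 5 in HY (all sites 5.28%), while a ratio of at most 0.5 was found at 4 in WT (all sites 14.7%) and 1 in HY (all sites 17.2%). Over the 24430 sites open in all 4 libraries the median scaled pileup relative to WT at D0 lay at -0.158 on the log2 scale in WT at D8 and at 0.0739 in HY at D0, and HY at D8 lay level with WT at D0. Scaling the libraries so that these medians are equal, which raises WT at D8 and lowers HY at D0, turned the WT split of 2 higher and 4 lower into 3 higher and 2 lower, where 1813 and 3088 of all 27417 shared sites were so called. It turned the HY split of 5 and 1 into 6 and 1, where 2010 and 4824 of all 33033 were. With this scaling the median ratio in HY was 1.45 (1.04 to 2.01), an interval that no longer included 1, against 0.931 over all shared sites, and in WT it was 1.27 against 1.00, with an interval that still included 1. Of the 16 sites open in all libraries, 9 had a ratio above 1 in both genotypes, 3 had a ratio below 1 in both and 4 lay on opposite sides of 1. The same split was not counted over the 24430 sites, so whether it differs from theirs is unknown.

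**Figure D4:**
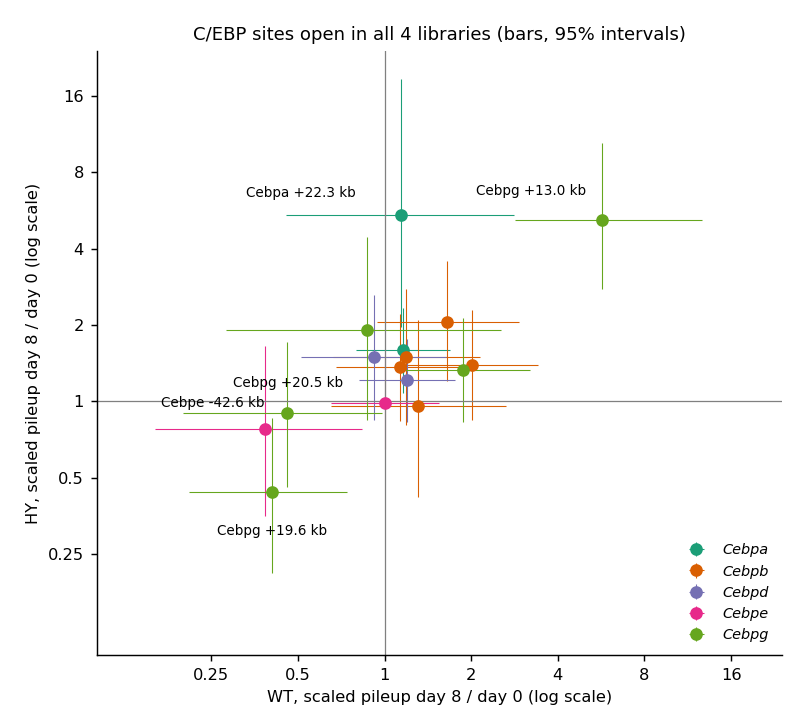
Ratio of scaled summit pileup at D8 to that at D0 in WT (x axis, log scale) and HY (y axis, log scale) at the 16 C/EBP gene sites open in all 4 libraries, coloured by gene, with 95% intervals for counting error. Cebpg +13.0 kb stands at 5.71 and 5.18 and Cebpg +19.6 kb at 0.405 and 0.441, and Cebpa +22.3 kb lies near 1 in WT and at 5.44 in HY.

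The third question was whether accessibility of the C/EBP genes depended on JMJD1A activity. At D0, 5 of 36 sites (13.9%, 4.67 to 29.5%) were open only in HY (all sites 21.7%) and 6 (16.7%, 6.37 to 32.8%) only in WT (all sites 12.1%). At D8, 10 of 41 sites (24.4%, 12.4 to 40.3%) were open only in HY (all sites 26.3%) and 6 (14.6%, 5.57 to 29.2%) only in WT (all sites 9.53%). Each of these intervals included the genome-wide share. The HY lists are longer than the WT lists of the same day.

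At shared sites the median ratio of HY to WT was 1.00 over 25 sites at D0 (0.840 to 1.12) and 1.15 over 25 at D8 (1.03 to 1.23). Over all shared sites it was 1.06 and 1.11, and the D8 interval included 1.11. With the alternative scaling the C/EBP medians were 0.953 at D0 (0.798 to 1.06) and 1.03 at D8 (0.924 to 1.10). The D8 interval then no longer excluded 1. At D0 no site reached a ratio of 2 (all sites 2.23%) and 1 lay at 0.5 or below (all sites 1.41%), which was Cebpa +22.3 kb at 0.388 (0.107 to 1.18). At D8, 1 reached 2 (all sites 1.68%) and none lay at 0.5 or below (all sites 0.510%), and the one that did was Cebpg +29.9 kb with 7 tags in WT and 16 in HY, a ratio of 2.46 (0.956 to 7.06). Both intervals included 1, and these sites were singled out after their values were seen.

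Only 2 of the 53 sites followed genotype on both days. Cebpa +8.0 kb (chr7:35912275-35912404, intergenic) was open in both HY libraries and in neither WT library, as were 0.899% of all sites. It held 13 tags in HY at D0 and 25 in HY at D8, a scaled ratio of 2.75 (1.36 to 5.86), while in WT at least 13 and 16 tags were needed to be listed at the highest background within 10 kb, which was that of the Cebpa promoter. Cebpb -1.1 kb (chr2:167513157-167513353) was open in both WT libraries and in neither HY library, as were 0.321% of all sites. It held 19 tags in WT at D0 and 22 at D8, while in HY at least 14 and 18 were needed. For both sites the pileup in the libraries without a peak is unknown. At Cebpb -1.1 kb it may lie just under these minimums. At Cebpa +8.0 kb the WT minimums may be too high. The HY background at that site was 0.855 at D0 and 4.25 at D8, against 3.46 and 6.26 at the Cebpa promoter.

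The 8 gained sites were chosen for a D8 peak in both genotypes, which limits how far HY and WT can differ there. Their HY/WT ratio at D8 ran from 0.645 (0.193 to 1.96) at Cebpg +40.5 kb to 1.34 (0.661 to 2.77) at Cebpd +2.4 kb, every interval included 1, and at Cebpb +5.5 and +7.5 kb it was 1.23 (0.716 to 2.12) and 1.22 (0.720 to 2.09). Smaller differences than these intervals span were not detectable at this depth. A further 6 of the 53 sites (11.3%, all sites 4.98%) were open in HY at D8 alone and 3 (5.66%, all sites 2.21%) in WT at D8 alone.

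The family was then set beside the genes around it in the adipogenic cascade. Around 8 genes acting upstream of C/EBP (Nr3c1, the glucocorticoid receptor, Creb1, Klf4, Klf5, Egr2, Stat3, Stat5a and Stat5b), 8 of 72 sites (11.1%, all sites 6.00%) were gained in both genotypes and 16 (22.2%, all sites 24.6%) lost in both. Klf4, a pluripotency and early adipogenic factor, had 6 of its 11 sites lost and none gained, and Nr3c1 had 3 of 14 gained and none lost. Around 8 partners and inhibitors (Ddit3, Atf4, Atf3, Nfil3, Trib1, Trib2, Trib3 and Dbp), 9 of 109 sites (8.26%, all sites 6.00%) were gained and 19 (17.4%, all sites 24.6%) lost. Atf4, a dimer partner of the family, had 5 of 15 sites lost and none gained, whereas Trib3 had 3 of 13 gained and none lost and Nfil3 3 gained and 2 lost of 13.

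Around 12 genes downstream of C/EBP, 49 of 167 sites (29.3%, all sites 6.00%) were gained in both genotypes and 17 (10.2%, all sites 24.6%) lost, and all 12 genes had at least 1 gained site, compared with 4 of the 5 C/EBP genes and 4 of 8 in each of the other lists, and with 27.9% of all coding genes. The windows of these 12 genes held 11 to 17 sites each, more than the median of 7 for a coding gene, and a window with more sites has more chances to hold a gained one. The 4 upstream genes with a gained site were Nr3c1, Stat3, Stat5a and Stat5b. Some of their gained sites were counted for more than 1 gene, so these are not 4 separate loci. Cd36, the fatty acid transporter, had 11 of 16 sites gained, Fabp4, the adipocyte fatty acid-binding protein, 8 of 14, Lpl, lipoprotein lipase, 7 of 11, and Plin1, which coats lipid droplets, 6 of 17, and none of Cd36, Fabp4 and Lpl had a lost site. Adipoq, Lep and Agt had more lost than gained sites, with 2 gained and 3 lost, 2 and 4, and 1 and 3, while Slc2a4 and Retn had 1 gained and none lost, Fasn 2 gained and 1 lost and Pck1 5 and 1. Pparg, the partner of C/EBPα, had 3 gained and 3 lost of 15, and its promoter held 17 tags in WT at D0, 18 in WT at D8, 12 in HY at D0 and 15 in HY at D8. The C/EBP genes, at 15.1% gained and 9.43% lost, stood between the upstream and downstream lists in the share gained. The interval of that share, 6.75 to 27.6%, included the 11.1% of the upstream list. In the share lost they lay below each list, and their interval of 3.13 to 20.7% included the 10.2% of the downstream list. Of the 12 downstream genes, 4 (Fabp4, Adipoq, Plin1 and Cd36) had a promoter peak only at D8 in both genotypes, 6 (Pparg, Lpl, Slc2a4, Fasn, Retn and Agt) had one in all 4 libraries, like Cebpa, Cebpb, Cebpd and Cebpg, and 2 (Lep and Pck1) had none in any list, like Cebpe.

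**Figure D5:**
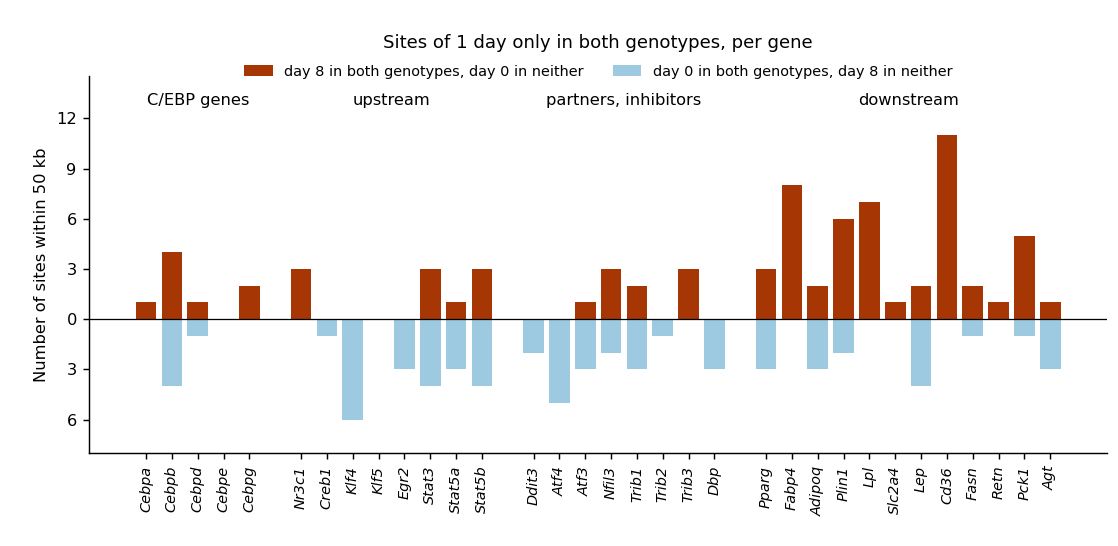
Number of sites within 50 kb of each gene (y axis) with peaks at D8 in both genotypes and at D0 in neither (bars upwards) or the reverse (bars downwards), for the C/EBP genes and the 3 pathway lists (x axis). Cd36 stands highest at 11 gained sites, Cebpb has 4 gained and 4 lost, and Cebpe has neither.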

How the data were processed

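Accessible chromatin was measured by ATAC-seq in 4 libraries, 1 for each genotype and day, and analysed from their peak lists. Per the labels and the methods of the study, the authors aligned reads to mm9 with Bowtie2, sorted them with SAMtools, removed duplicates with Picard and made coverage tracks with deepTools. Peaks are stated to have been called as for the ChIP-seq data of the same study. Versions, the calling threshold and any shift of reads for the transposase cut are not given in the sources used here. The deposited lists have the narrowPeak layout and were made per library, with an integer score, a fold enrichment (ratio), a −log10 p-value, a −log10 q-value and a summit offset for each peak. The deposited score was read but no result rests on it.

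The summit pileup and local background were solved from the deposited fold enrichment and −log10 p-value, assuming a Poisson model and a pseudocount of 1, and this succeeded for 100% of peaks in each list within 0.002 of the −log10 p. The lowest local background in a list (0.659, 0.531, 0.708 and 0.494 in WT at D0, WT at D8, HY at D0 and HY at D8) served as its background rate and stands in for depth, since read totals were not used here. Median pileups of 13 to 15 limit the precision at a single site. Peaks of the 4 lists that overlapped by at least 1 bp were chained into sites. Genes and TSSs were taken from GENCODE M1 and sequences from the NCBIM37 genome. Differences were called as a peak in 1 list only or as a scaled pileup ratio of at least 2 or at most 0.5, with no test. The solver was tested on simulated data. Python 3.11.15, pandas 2.3.3, NumPy 2.4.6, SciPy 1.17.1 and pysam 0.24.0 were used.

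The members and gene lists were chosen with earlier results of these data known. Named were all promoter sites, per gene the 2 other sites with the highest scaled pileup and up to 3 gained and 3 lost sites by the weaker pileup, and up to 5 sites that followed genotype. Sites named beyond this rule are given as values only. Promoter tables of another build (GRCm38) were not used.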

Additional observations from a re-analysis of the deposited data

Results flagged for a closer look

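The site 19.4 kb downstream of the Cebpa TSS (chr7:35923647-35923811) was open in WT at D0, with 6 tags at its summit, and in HY at D8, with 13 tags, and in neither of the other libraries, so that the day without a peak differed between the genotypes. It was singled out because its presence over days ran in opposite directions in WT and HY. The 6 tags in WT at D0 are fewer than the 8 a summit needed to be listed in WT at D8 at the highest background within 10 kb, so an unchanged pileup could also have gone unlisted there. The difference was not tested. Of all sites, 0.416% showed this pattern. A site beside it, 19.1 kb downstream, was open in HY at D8 only, with 14 tags.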

How the results depend on the processing

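The 12 shares and medians were recomputed under up to 8 alternatives (88 values in all), and 82 stayed within the interval of the reported value, as did all 32 alternative promoter ratios, and no value whose interval excluded 1 turned direction. The Cebpb promoter ratio of D8 to D0 in WT went from 2.01 (1.20 to 3.41) to 1.53 (0.952 to 2.48) with the wider promoter window, so that it was no longer 2-fold and its interval included 1. With lists of equal length the share of sites open only at D8 in WT was 48.5% (all sites 25.5%). The shares open only at D0 were 6.06% in WT (all sites 31.7%) and 5.71% in HY (all sites 30.2%). With only sites nearest to a member gene, the share open only at D8 was 11.8% in WT (all sites 12.1%) and 33.3% in HY (all sites 13.7%). That open only in HY at D8 was 45.0% (23.1 to 68.5%), an interval that included the genome-wide 26.3%. In WT the share open only at D8 with a window of 25 kb (7 of 28 sites, 10.7 to 44.9%) and that open only at D0 among the nearest sites (35.3%, 14.2 to 61.7%) had intervals that included the genome-wide share. With libraries scaled to the sites open in all 4, the median HY/WT ratio at D8 was 1.03 (0.924 to 1.10), an interval that no longer excluded 1. It also included 1 among the nearest sites (0.678 to 1.86) and with peaks joined only at 50% cover (0.967 to 1.22). The median D8/D0 ratio in HY with that scaling was 1.45 (1.04 to 2.01). Its interval excluded 1, as did that of the WT median among the nearest sites (1.20, 1.10 to 1.88). At 50% cover the HY median was 1.19 (0.758 to 1.49), an interval that included the reported 0.884 over all shared sites. No paired analysis was made: the labels carry no replicate numbers and no result comes from a test, although D0 and D8 within a genotype would give 2 pairs. With 1 library in each group no library could be left out. Read depth and the pileup where no peak was listed are unknown, which limits every statement on presence.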
